A study of Mus musculus with 14 samples.

Results

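The binding of RXRα was compared between mouse embryonic stem cells (mESCs) and gastruloids, aggregates of these cells that develop the germ layers and a body axis in culture. The members were 27050 regions, 24698 in mESCs and 2352 in gastruloids, out of 132214 regions over the 6 immunoprecipitation groups of the series. Within each group, overlapping peaks of the deposited lists were merged with an overlap of at least 1 bp, and a region was kept when both replicates held a peak. Any peak touching a peak of the mESC or gastruloid input was dropped first. An mESC-only region touched no peak of either gastruloid list, a gastruloid-only region touched no peak of either mESC list, and a shared region touched a peak in both lists of the other cell type.

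All 4 RXRα libraries came from 1 genotype, an E14 triple reporter line with an endogenous Rxrα-HA-FKBP12F36V degron tag, and were precipitated with an HA antibody. The growth protocol describes the cells as a dual BRA-GFP, SOX17-RFP reporter line. The mESC group (2 libraries) was grown with serum and LIF, and the gastruloid group (2 libraries) was collected at 120 h. Gastruloids were started from 300 cells each in NDiff227, and 3 µM CHIR99021, an activator of Wnt signalling, was added after 48 h. Regions of p300, a coactivator found at active enhancers, came from the same 2 cell types of a second line with an endogenous p300-V5-miniTurboID tag and a V5 antibody. Both inputs came from that p300 line, so no input and no untagged control of the Rxrα line was used here. No label says whether replicates were separate cultures, the lists hold no expression values, and the cell types were therefore not checked against marker levels.

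RXRα is a nuclear receptor that binds DNA mostly as one partner of a pair, with the retinoic acid receptors (RARs), the liver X receptors (LXRs) or the peroxisome proliferator-activated receptors (PPARs) as the other partner. Each partner contacts a six-base half-site, and the spacer between tandem half-sites, called a direct repeat, favours one kind of pair over another. Retinoic acid made in the trunk mesoderm acts through RXR-RAR pairs on Hox genes, on genes of the posterior neural tube and on genes that make and remove retinoic acid itself.

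Direct repeats were searched in the 300-base RefSeq promoter windows of GRCm38.p6, from 250 bases before to 50 after a listed start, on both strands. The half-site AGGTCA was allowed along with its variant AGTTCA, its variant GGGTCA and its variant GGTTCA, in tandem with spacers of 0 to 8 bases (DR0 to DR8), and overlapping matches were all counted. The promoter of Rarb, a retinoic acid receptor gene that is itself induced by retinoic acid, is printed first because the summits of all 4 libraries fell in it. It lies at chr14:16575427-16575726 on the minus strand and is shown 5′ to 3′ along the gene, with the half-sites in capitals and 1 DR5 starting 53 bases before the listed start.
Rarb promoter: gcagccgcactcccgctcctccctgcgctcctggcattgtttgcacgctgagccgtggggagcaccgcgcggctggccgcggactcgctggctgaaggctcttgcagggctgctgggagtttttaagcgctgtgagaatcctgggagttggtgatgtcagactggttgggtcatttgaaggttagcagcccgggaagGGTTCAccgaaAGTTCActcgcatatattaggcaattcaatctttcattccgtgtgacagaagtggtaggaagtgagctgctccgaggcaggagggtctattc

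The next 5 repeats lie in promoter windows with a shared region's summit and are read along the repeat, half-sites in capitals. They show the range of spacers found. They and the mESC-only examples were picked from the list of matches after their values were seen.
Dedd DR8 (chr1:171328965-171328984): AGGTCAcgatctggAGTTCA
Chchd1 DR4 (chr14:20703019-20703034): AGGTCAagagGGGTCA
Ccdc71 DR1 (chr9:108460487-108460499): GGGTCAaGGGTCA
Pam16 DR1 (chr16:4624925-4624937): GGGTCAgAGGTCA
Srp54a DR1 (chr12:55080378-55080390): AGGTCAaAGGTCA

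In windows with an mESC-only summit, the following repeats were among those found, again read along the repeat. The DR0 repeats are shown because no window of a shared summit held one, while DR1 and DR2 were found in both classes.
Sgk1 DR0 (chr10:21978609-21978620): AGTTCAAGGTCA
Oxt DR0 (chr2:130576003-130576014): GGGTCAAGGTCA
Tinagl1 DR2 (chr4:130175216-130175229): GGGTCActGGGTCA
Igsf23 DR1 (chr7:19950803-19950815): AGGTCAaAGGTCA

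A direct repeat was found in 367 of all 32817 promoter windows, or 1.12% (95% Wilson interval 1.01 to 1.24). The share was 6.75% (21 of 311, 4.46 to 10.1) in windows with the summit of a shared region and 9.44% (22 of 233, 6.32 to 13.9) in windows with an mESC-only summit. For mESC regions that touched the first gastruloid list alone it was 4.13% (30 of 726, 2.91 to 5.84). None of the 37 windows with a gastruloid-only summit held one, which allows a share of up to 8.11%. Each of these sets with mESC binding thus had a larger share than all promoters, and the gastruloid-only set was too small to place. Taken alone, the first gastruloid replicate had a repeat in 1.89% of its 3593 promoter windows (68, 1.5 to 2.39), and the second in 4.85% of its 412 (20, 3.16 to 7.38). The single mESC lists had one in 3.51% of 2449 windows (86) and 4.97% of 1347 (67). These intervals cover counting error only, and a match is a stretch of letters, not a measured site.

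DR1, the spacing that RXR shares with PPAR partners, was in 4.18% of shared windows (13 of 311, 2.46 to 7.02) and 1.72% of mESC-only windows (4 of 233, 0.67 to 4.33), against 0.222% of all windows (73 of 32817). DR5, the spacing of the Rarb repeat, was in 0.643% of shared windows (2 of 311, 0.177 to 2.31). It was in 0.858% of mESC-only windows (2 of 233, 0.236 to 3.08) and 0.0975% of all windows (32). DR4 was in 0.965% of shared windows (3 of 311), 0 of 233 mESC-only windows and 0.0823% of all windows (27). DR2 was in 3.43% of mESC-only windows (8 of 233, 1.75 to 6.63) and 0.965% of shared windows (3 of 311, 0.329 to 2.80). DR0 was in 2.15% of mESC-only windows (5 of 233, 0.92 to 4.92) and in 0 of 311 shared windows, which allows up to 0.965%. For each of these spacers the intervals of the 2 classes overlapped, and the difference was not tested. The DR0 letters of Sgk1 and Oxt contain the extended half-site TCAAGGTCA, which single receptors such as Esrrb and Nr5a2 are known to bind. That extended half-site, searched on both strands after the repeats were seen, was in 1.72% of mESC-only windows (4 of 233), 0.322% of shared windows (1 of 311) and 0.424% of all windows (139). At least 1 half-site, alone or in a repeat, was in 73.8% of mESC-only windows, 65.0% of shared windows, 32.4% of gastruloid-only windows and 43.7% of all windows.

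The 2 gastruloid lists differed in length more than in background. After removal at inputs the mESC lists held 49661 and 28112 peaks, the first gastruloid list 29867 and the second 3111. The median number of fragments at a summit was 23 and 23 in mESCs, 16 in the first gastruloid library and 13 in the second. The lowest local background, which grows with the number of fragments sequenced, was 2.08 and 2.2 fragments in mESCs and 1.1 and 1.11 in gastruloids. The second gastruloid library therefore stood apart in the length of its list at nearly the same background as the first, and every count below that needs both gastruloid replicates is bounded by it. Its share of peaks on chromosome 11 was 13.7%, against 9.21%, 10.2% and 9.21% in the other 3, and the part of this in the results was not tested. Fragment counts are given as recovered, not scaled between libraries.

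With the full lists, most RXRα regions of mESCs had no counterpart in gastruloids, and most gastruloid regions were also listed in mESCs. Of the 24698 mESC regions, 15973 (64.7%) were mESC-only, 7105 (28.8%) touched a peak of the first gastruloid list alone, 48 touched the second alone and 1572 (6.36%) touched both. Of the 2352 gastruloid regions, 1574 (66.9%) touched both mESC lists, 265 touched the first alone, 38 the second alone, and 475 (20.2%) were gastruloid-only. The order of the last 2 classes turned when each list was limited to its 3111 peaks of highest −log10 q, with 908 gastruloid-only and 371 shared regions.

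Each gastruloid replicate alone gave another balance. Of the 29867 peaks of the first, 15672 (52.5%) overlapped no mESC peak, 5413 (18.1%) overlapped 1 mESC list and 8782 (29.4%) overlapped both. Of the 3111 peaks of the second, 1141 (36.7%) overlapped none, 372 (12%) overlapped 1 and 1598 (51.4%) overlapped both. The first replicate alone thus had its larger share away from mESC peaks, and the second its larger share on them. When peaks of all 4 lists were merged into 68976 regions, 15194 were in the first gastruloid list alone, 637 in the second alone, 475 in both gastruloid lists and 1588 in all 4.

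**Figure D1:**
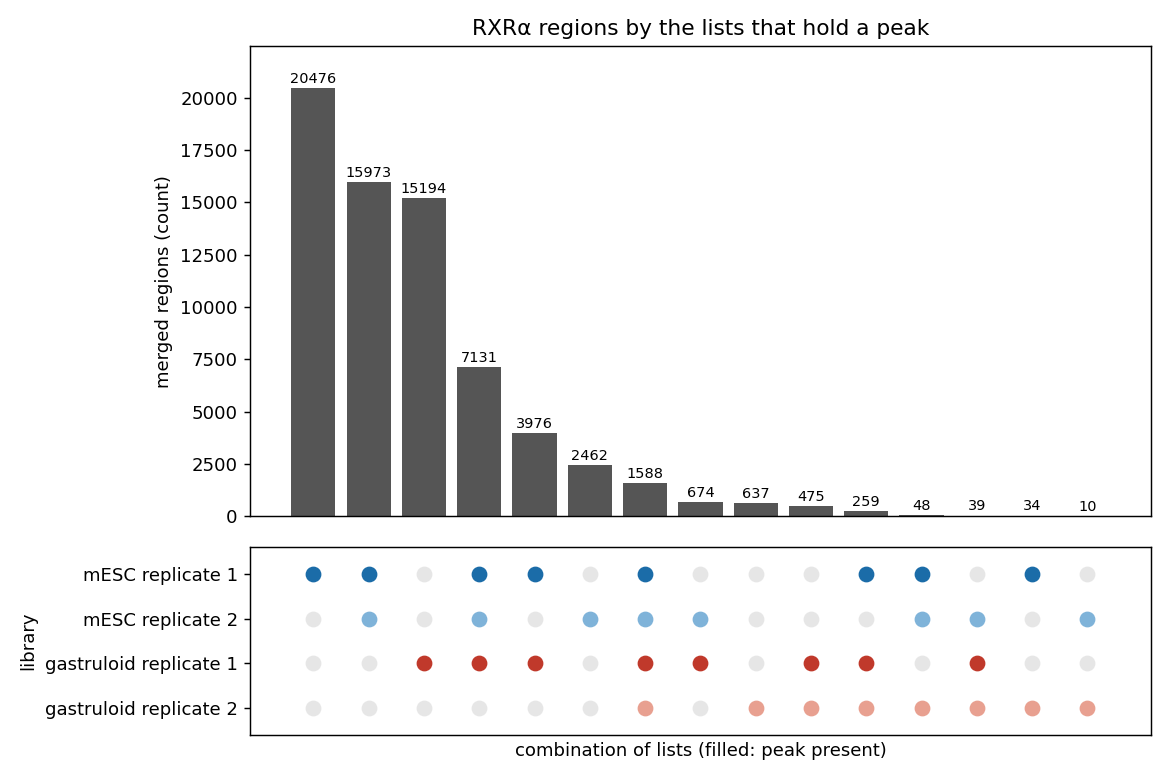
Number of merged RXRα regions (vertical axis) for each combination of the 4 lists that hold a peak (filled dots below). The 3 tallest bars are regions of the first mESC list alone (20476), of both mESC lists alone (15973) and of the first gastruloid list alone (15194), and 1588 regions were in all 4 lists.

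Overlap between lists was larger in the part of highest rank than in the lowest. The authors' −log10 q was used here to order peaks within a list only, with the fold enrichment for ties. Each list was divided into 10 equal parts in this order. In the top part of the first mESC list 99.7% of peaks were also in the second, and in the lowest part 10.3%. Of the same top part 36.3% were in the first gastruloid list and 12.7% in the second, and of the lowest part 18.5% and 0.926%. In the top part of the second mESC list 100% of peaks were in the first mESC list. Its overlap was 44.2% with the first gastruloid list and 17.2% with the second. Among the 500 peaks of highest −log10 q, 48.8% of the first mESC list and 55.6% of the second were in the first gastruloid list. Strong mESC peaks were therefore nearly always in the other mESC replicate and less often in a gastruloid list. In the second gastruloid list 99.4% of the top part were in the first gastruloid list, 84.9% in the first mESC list and 79.8% in the second mESC list. In the first gastruloid list 67.7% of the top part were in the first mESC list, 59.0% in the second and 44.9% in the second gastruloid list.

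**Figure D2:**
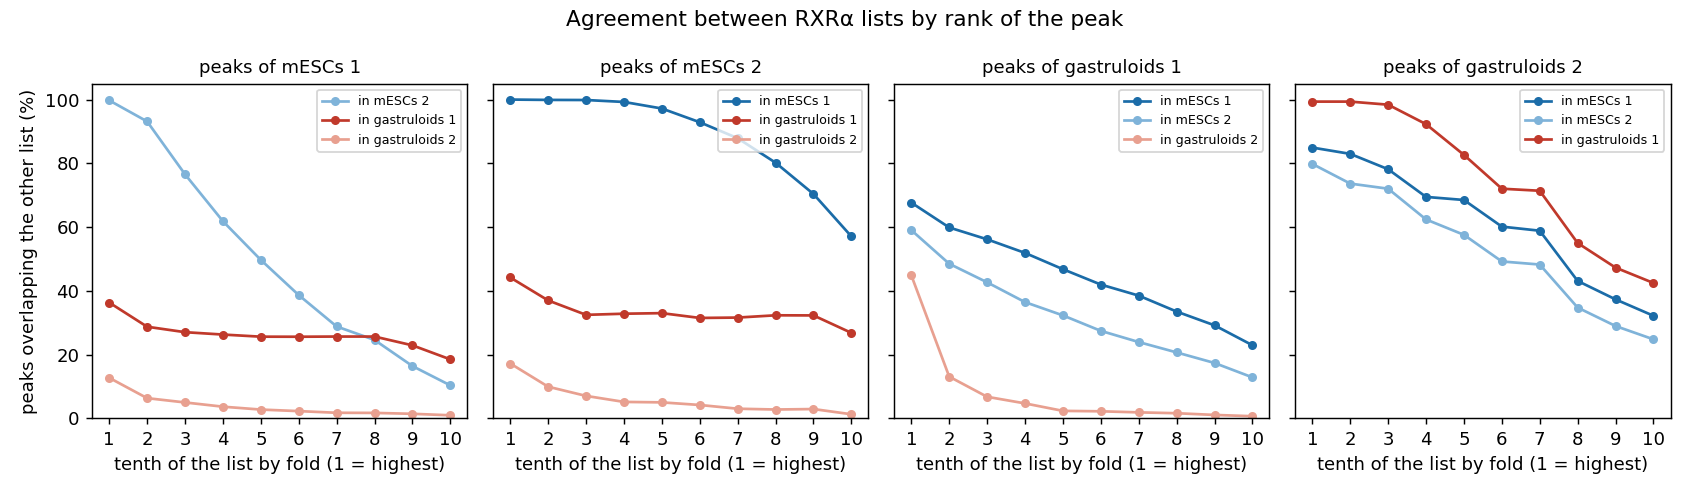
Share of peaks (%) of each RXRα list, by 10 equal parts of the list, that overlap a peak of each other list. Parts are ordered by the authors' −log10 q, with fold for ties, although the axis label names fold. In the top part of the first mESC list 99.7% of peaks are in the other mESC list and 36.3% in the first gastruloid list.

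Peaks of gastruloids lay more often at genes' ends and starts than peaks of mESCs. A summit within 1 kb of a gene's end or a listed start was counted, and 18.7% and 21.4% of mESC peaks met this, against 36.7% and 37.0% of gastruloid peaks. The means were 20.1% ± 1.92 (SD, n = 2) and 36.9% ± 0.205 (SD, n = 2), and the groups did not overlap. The two-sided exact permutation test over the 4 libraries gave p = 0.333, the smallest that 2 against 2 allows, so no call can be made. The classes differed in the same measure: 7.55% of mESC-only regions, 51.5% of shared regions and 18.9% of gastruloid-only regions were at an end or start. Peaks of the first gastruloid replicate that overlapped no mESC peak were there in 26.1% of cases, and those of the second in 15.7%.

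p300 marked the classes differently. Of the mESC-only regions, 27.9% lay on p300 regions of both cell types, 23% on p300 of mESCs alone, 4.69% on p300 of gastruloids alone and 44.4% on none. Of the gastruloid-only regions, 1.26% lay on p300 of both, 0.632% on p300 of mESCs alone, 79.8% on p300 of gastruloids alone and 18.3% on none. Sites bound by RXRα in gastruloids only were thus almost never p300 regions in mESCs, whereas 32.6% of the sites bound in mESCs only were p300 regions in gastruloids. Shared regions, counted in gastruloids, lay on p300 of gastruloids in 87.6% of cases and on p300 of mESCs in 33.0%.

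Each gastruloid replicate alone kept the low share on p300 of mESCs but not the high share on p300 of gastruloids. Of the peaks without an mESC peak, 49.0% in the first replicate and 41.9% in the second lay on p300 of gastruloids, and 3.98% and 1.58% lay on p300 of mESCs. On no p300 region lay 50.1% and 57.4%, against 18.3% of gastruloid-only and 44.4% of mESC-only regions. Per library, 36.1% and 39.7% of mESC peaks and 58.7% and 68.8% of gastruloid peaks lay on p300 of their own cell type. The groups did not overlap (exact permutation p = 0.333, two-sided, the smallest possible), but the order turned when only the 3111 peaks with the highest −log10 q of each list were used: 79.8% and 72.0% in mESCs against 77.8% and 68.8% in gastruloids. The series held 31014 p300 regions in mESCs and 53025 in gastruloids.

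**Figure D3:**
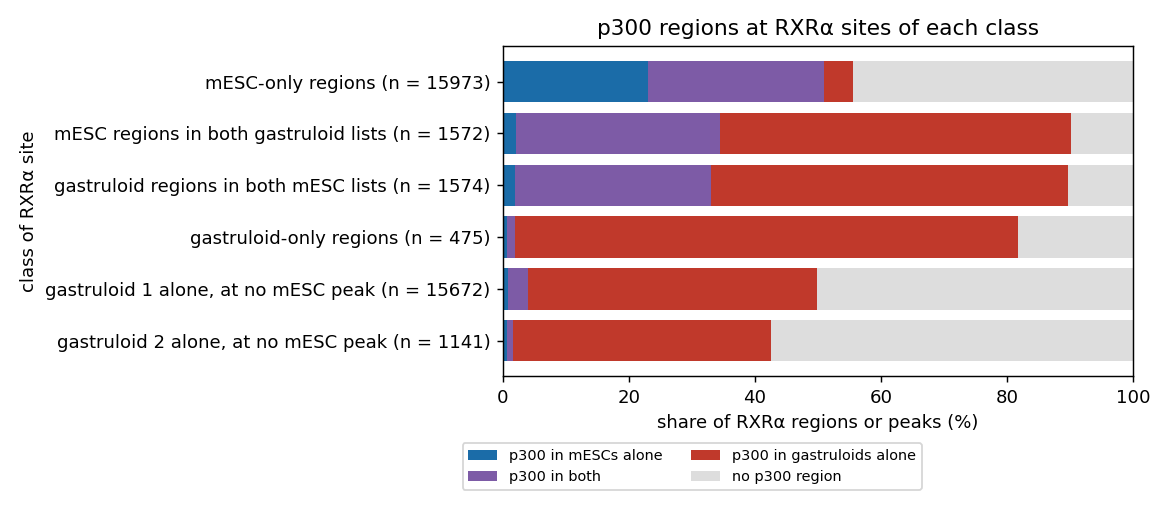
Share of RXRα regions or peaks (%) of each class that lie on a p300 region of mESCs alone, of both cell types, of gastruloids alone or of neither. In gastruloid-only regions p300 of gastruloids alone makes up 79.8%, and in mESC-only regions 4.69%.

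The strongest RXRα regions of mESCs alone lay away from gene ends, on p300 regions. Of the 2 regions that tied for the best mean rank, the first lay 7725 bp from the nearest end or start of Specc1, at chr11:62214974-62215523. It had 1327 and 1145 fragments in the 2 mESC libraries and no peak in either gastruloid library. The other lay 2551 bp from Aurkc, an Aurora kinase of germ cells, with 423 and 236 fragments. The other 8 of the 10 lay near Cxcr3, Dcaf12l1, Tenm1, Zmym5, Tmprss11a and Lrrc8c or had no gene within 100 kb, and all 10 were p300 regions in both cell types. Of the 705 mESC-only regions with at least 100 fragments in both replicates, 469 (66.5%) were p300 regions in both cell types, against 27.9% of all mESC-only regions.

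Of the 475 gastruloid-only regions, 426 had fewer fragments in the second gastruloid library than in the first. The best-ranked region lay 98329 bp from Ccdc85a, with 514 fragments in the first gastruloid library and 77 in the second. The region near Metrn, which encodes a secreted factor of neural cells, had 614 and 73, and the region near F11r, a tight junction protein, had 214 and 56. No gastruloid-only region reached 100 fragments in both replicates. Only 4 of all 2352 gastruloid regions did, since the second gastruloid library held at most 119 fragments at any summit. In the first replicate alone, 175 peaks without an mESC peak had at least 100 fragments, and 84.0% of these lay on p300 of gastruloids and 2.29% on p300 of mESCs.

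Among shared regions, those ranked highest in gastruloids lay near Qk, Syt1, Plekhb1, Abca1, Etv3l, Guf1, Cfl2, Suox and Elovl5. Those ranked highest in mESCs lay near Slain2, Gja1, Kcnh1, Nxn, Gm15319, Capn2, Dsp, Gm14496 and Sox13, and no gene was in both sets of 10. The region of Slain2 had 1238 and 796 fragments in mESCs, and that of Qk, an RNA-binding protein of glia, had 393 and 50 in gastruloids. At the promoters printed above, the shared region of Dedd had 478 and 345 fragments in mESCs and 216 and 50 in gastruloids. Chchd1, a mitochondrial ribosome protein, had 115, 87, 168 and 49 in the same order. Sgk1, a kinase induced by serum and glucocorticoids, had 149 and 88 in mESCs and no gastruloid peak.

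For the gene counts, a region was given to the protein-coding gene with the nearest end or listed start within 100 kb. This distance rule does not show on which gene a site acts or whether the site lies inside that gene. Of the 53 genes of the retinoic acid pathway, 38 had an mESC region, 28 an mESC-only region, 14 a gastruloid region, 6 a gastruloid-only region and 12 a shared one. Over all 21887 genes the shares were 49.4% with an mESC region, 35.8% mESC-only, 8.78% with a gastruloid region, 1.68% gastruloid-only and 6.37% shared. The pathway's own shares were 71.7%, 52.8%, 26.4%, 11.3% and 22.6%, all above those of all genes. Over all 323 genes of the 21 lists they were 68.7%, 52.6%, 25.7%, 10.5% and 18.3%, so the pathway stood close to the other developmental lists. In the first gastruloid replicate alone 35 of the 53 genes had a peak that overlapped no mESC peak (35.4% of all genes did), and in the second 7 (3.95% of all genes).

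The receptors themselves were bound in mESCs, all 6 of 6, and the 3 RAR genes had a shared region. Among all genes, 49.4% had an mESC region and 6.37% a shared one. At the Rarb promoter, whose DR5 is printed above, the 4 libraries had 268 and 189 fragments in mESCs and 472 and 78 in gastruloids. The first gastruloid library was the highest and the second the lowest, so the groups overlapped. At Rara, 4870 bp from the nearest end or start, the counts were 339, 258, 199 and 50 fragments in the same order. At Rarg, 710 bp from the nearest end or start, the counts were 449, 277, 145 and 40. At both of these genes both mESC libraries were above both gastruloid libraries on this unscaled count. A second Rarg region, 4318 bp from the nearest end or start, had 516 and 280 fragments in mESCs. It had 57 in the first gastruloid library and no peak in the second. Rxra had 3 and Rxrg 2 mESC-only regions and no region in both gastruloid replicates, but the first gastruloid replicate alone listed 6 peaks at Rxra, 5 of them at no mESC peak, and 1 at Rxrg. Rxrb had 1 mESC region, which was also listed in the first gastruloid library.

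Genes that make, store or carry retinoids held 4 of the pathway's 7 gastruloid-only regions. Dhrs3, a retinaldehyde reductase that restrains retinoic acid synthesis, had a gastruloid-only region 21499 bp from its nearest end or start with 92 and 32 fragments. The same gene had 6 mESC regions, 2 of them mESC-only and 2 shared. Crabp2, which carries retinoic acid to the nucleus, had 2 gastruloid-only regions, 4869 and 5788 bp away, with 227 and 20 and with 151 and 23 fragments. A shared region of Crabp2, 701 bp from its nearest end or start, had 47 and 25 fragments in mESCs and 86 and 24 in gastruloids. Stra6, the membrane receptor for retinol-binding protein, had a shared region with 76, 50, 97 and 20. The synthetic enzymes Aldh1a2 and Aldh1a3 had 2 mESC-only regions each and no region in both gastruloid replicates, while the first replicate alone listed 2 peaks at each. Of the 19 genes in this group, 10 (52.6%) had an mESC region and 8 (42.1%) an mESC-only region, near the 49.4% and 35.8% of all genes. A gastruloid-only region was near 3 (15.8%), against 1.68% of all genes.

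Of the degrading enzymes, Cyp26a1 and Cyp26b1 were bound in both cell types and Cyp26c1 had no region. The main region of Cyp26a1, 1858 bp from the nearest end or start at chr19:37695401-37696225, had 256 and 178 fragments in mESCs and 320 and 60 in gastruloids. A further 2 sites of Cyp26a1, 88174 and 29802 bp away, had 85 and 32 and 59 and 22 fragments in gastruloids. In mESCs the first of these had 41 and 36, and the other had 10 in the first library alone. Cyp26b1 had 69 and 63 in mESCs and 148 and 25 in gastruloids at a site 10272 bp from its nearest end or start. At all of these sites the first gastruloid library was the highest. The second was below both mESC libraries at all but the site 29802 bp away. These sites are a part of those bound: Cyp26b1 also had 5 mESC-only regions, and Cyp26a1 also had 1 gastruloid-only region.

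**Figure D4:**
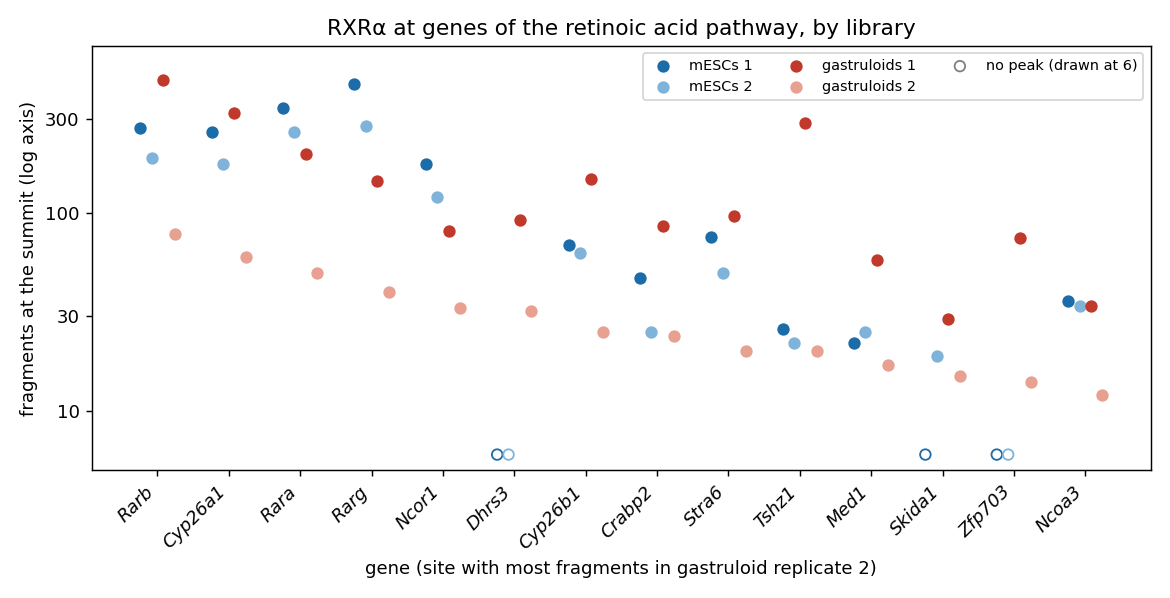
Fragments at the RXRα summit (log axis) in each of the 4 libraries for the 14 retinoic acid pathway genes with a gastruloid region, at the site with most fragments in the second gastruloid library. Open circles mark libraries without a peak, as at Dhrs3, whose site had 92 and 32 fragments in gastruloids and none listed in mESCs.

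All 9 receptor coregulators had an mESC region, 7 an mESC-only region, 3 a shared one and none a gastruloid-only one. Among all genes the shares were 49.4%, 35.8%, 6.37% and 1.68%. The corepressor gene Ncor1 had an mESC-only region with 611 and 331 fragments, and at its start 178, 120, 81 and 33 in the 4 libraries. Of 16 retinoic acid response genes, 11 (68.8%) had an mESC region, 8 (50%) an mESC-only region and 2 (12.5%) a gastruloid-only region. Znfx1 had an mESC-only region with 594 and 333 fragments, and Prdm14, a repressor that maintains naive pluripotency, had 8 mESC-only regions. Tshz1, a zinc-finger factor, had 26 and 22 fragments in mESCs and 284 and 20 in gastruloids at its shared site, where the 2 gastruloid libraries lay on opposite sides of the mESC libraries.

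Targets of other RXR pairs stood among the shared sites. Of 23 LXR and PPAR target genes, 18 had an mESC region, 15 an mESC-only region, 8 a shared region and none a gastruloid-only region. These are 78.3%, 65.2%, 34.8% and 0%, against 49.4%, 35.8%, 6.37% and 1.68% of all genes. Srebf1, the regulator of fatty acid synthesis, had 404 and 252 fragments in mESCs and 703 and 101 in gastruloids at its start. Abca1, which exports cholesterol from cells, had 4 shared gastruloid regions, and the one 88 bp from its end had 34, 15, 405 and 65. Abcg1, another sterol exporter, had 337, 232, 265 and 55 at a site assigned to it. Pdk4, a PPAR target that limits glucose oxidation, had 5 mESC regions and, in gastruloids, 3 peaks in the first replicate alone.

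Of 14 other partner receptors, 12 (85.7%) had an mESC region, 8 (57.1%) an mESC-only region and 1 (7.14%) a gastruloid-only region. The shares of all genes were 49.4%, 35.8% and 1.68%. Near Ppara the 4 libraries had 50, 45, 287 and 66 fragments, and both gastruloid libraries were above both mESC libraries. Of 18 other nuclear receptors 15 (83.3%) had an mESC region, 9 (50%) an mESC-only region and 1 (5.56%) a gastruloid-only region. A shared region was near 5 (27.8%), against 6.37% of all genes. Esrrb, a receptor of the naive pluripotency network, had 8 mESC-only regions, the largest with 1144 and 631 fragments at chr12:86501523-86502229 and no gastruloid peak. Nr6a1, a receptor of trunk development, had 439, 281, 173 and 36 at a site 1117 bp from its nearest end or start.

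Naive pluripotency genes carried the densest mESC-only binding of the lists. All 16 had an mESC-only region, 67 such regions in all, with a median of 3.50 per gene against 0 over all genes. None had a gastruloid-only region, and 4 had a shared one. Among all genes 35.8% had an mESC-only region, 1.68% a gastruloid-only region and 6.37% a shared one. Tbx3 had 11 mESC-only regions, Tfcp2l1 had 9 and Klf4 had 8. The largest near Klf4 held 362 and 167 fragments, and that of Tfcp2l1 210 and 125, with no gastruloid peak at either. A shared site near Tbx3 had 403, 216, 248 and 68. Of 13 core and primed pluripotency genes 10 (76.9%) had an mESC-only region. Near Sox2 a site 16160 bp away had 333 and 149 fragments in mESCs, 59 in the first gastruloid library and no peak in the second.

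Of 39 Hox genes, 16 had an mESC region, 6 an mESC-only region, 14 a gastruloid region, 7 a gastruloid-only region and 11 a shared region. Their shares were 41.0%, 15.4%, 35.9%, 17.9% and 28.2% in the same order. Among all genes the shares were 49.4%, 35.8%, 8.78%, 1.68% and 6.37%. In the first gastruloid replicate alone 23 had a peak that overlapped no mESC peak, and in the second 8, against 35.4% and 3.95% of all genes. Hoxc4 had a shared site 24795 bp away with 40 and 23 fragments in mESCs and 760 and 71 in gastruloids, and a gastruloid-only site 28924 bp away with 348 and 31. Hoxb3 had a gastruloid-only site 6713 bp from its nearest end or start with 391 and 58, and a shared site with 177, 102, 453 and 62. At Hoxb1 a site 1601 bp away had 33, 24, 119 and 29. Of these shared sites only that of Hoxc4 had both gastruloid libraries above both mESC libraries.

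The Hox cofactors, homeodomain partners of Hox proteins, had the highest share of gastruloid regions of the 21 lists, 7 of 9. All 9 had an mESC region, 7 an mESC-only region, 5 a shared region and 3 a gastruloid-only region. The shares of all genes were 49.4%, 35.8%, 6.37% and 1.68%, and 8.78% had a gastruloid region. Meis1 had 4 gastruloid-only regions, the most of any gene. Their fragments in the 2 gastruloid libraries were 373 and 54 at chr11:18889112-18889487, 173 and 20, 99 and 19, and 19 and 15. Meis1 also had 3 mESC-only regions and no shared one, and the first gastruloid replicate alone listed 16 peaks there. Meis2 had 35 and 20 fragments in mESCs against 312 and 65 in gastruloids at a site 8064 bp from its nearest end or start. At that site the groups did not overlap. Pknox2 had a gastruloid-only site 53889 bp from its nearest end or start with 171 and 21.

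Of 16 neural tube genes, 8 (50.0%) had an mESC region and 6 (37.5%) an mESC-only region, near the 49.4% and 35.8% of all genes. A gastruloid-only region was near 4 (25.0%), against 1.68% of all genes, and a shared one near 1. In the first gastruloid replicate 15 had a peak that overlapped no mESC peak, and in the second 5, against 35.4% and 3.95% of all genes. Irx3, a factor of neural patterning, had 2 gastruloid-only regions with 285 and 25 and with 101 and 29 fragments. It had no mESC region, but the first mESC replicate alone listed 4 peaks there. Pax7 had 2 gastruloid-only regions, with 219 and 14 and with 180 and 30, and Pax6 had 1 with 223 and 18. Both genes were also bound in mESCs, Pax7 with 5 mESC regions, 3 of them mESC-only, and Pax6 with 2, 1 of them mESC-only. In the second gastruloid library these 5 sites had 14 to 30 fragments, against its median of 13 per summit.

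**Figure D5:**
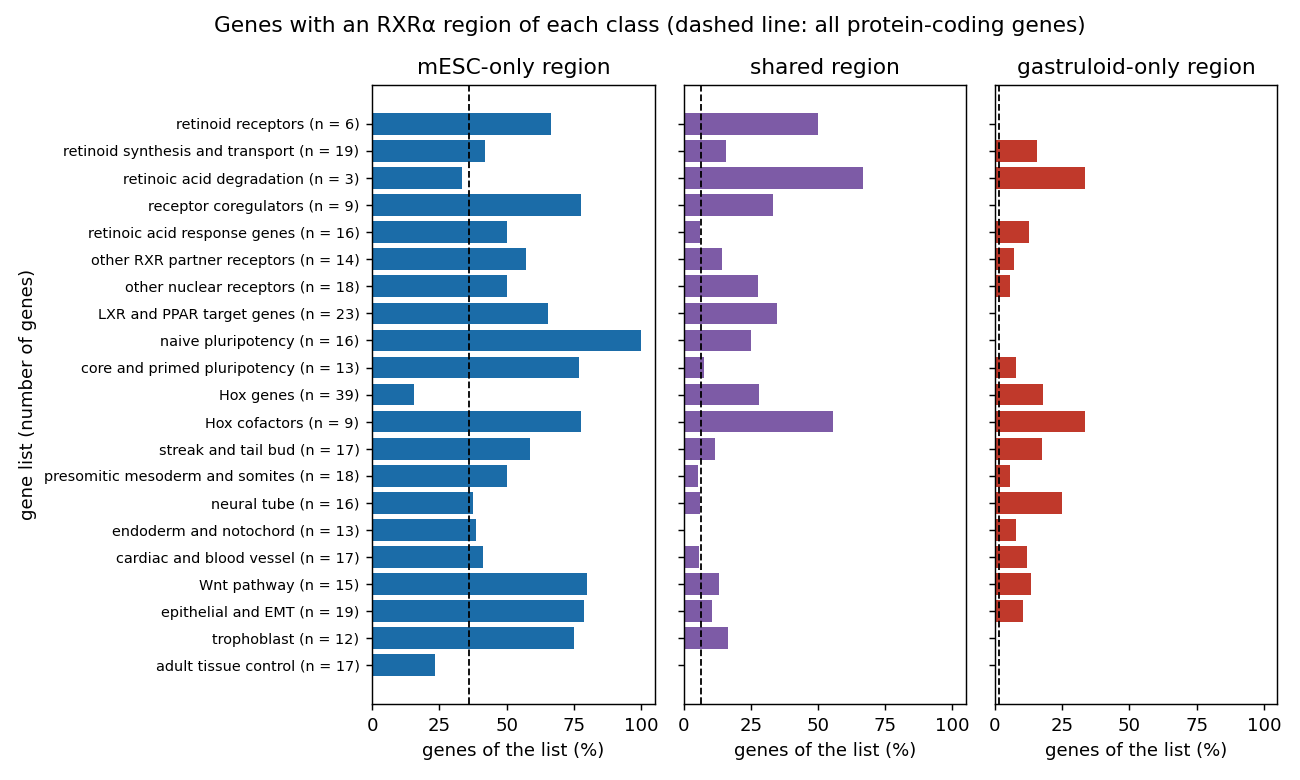
Share of genes (%) of each list with an mESC-only, a shared and a gastruloid-only RXRα region, with the share of all 21887 protein-coding genes as a dashed line. Naive pluripotency stands at 100% for mESC-only regions and 0% for gastruloid-only regions, and Hox genes stand at 15.4% and 17.9%.

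In the remaining lists, mESC-only regions were near more genes than gastruloid-only regions, as they were over all genes (35.8% and 1.68%). An mESC-only region was near 12 of 15 Wnt pathway genes, 15 of 19 epithelial and EMT genes, 9 of 12 trophoblast genes, 10 of 17 streak and tail bud genes, 9 of 18 presomitic and somite genes, 7 of 17 cardiac and blood vessel genes and 5 of 13 endoderm and notochord genes. Gastruloid-only regions, which need the short second list, were near 2, 2, 0, 3, 1, 2 and 1 of them. Peaks of the first gastruloid replicate alone that overlapped no mESC peak were near 13, 13, 6, 12, 11, 14 and 6, against 35.4% of all genes. Tcf7l1, a Wnt repressor, had 8 mESC-only regions, and a site assigned to it had 282 and 170 fragments in mESCs and 18 in the first gastruloid library. Tfap2c, a trophoblast and germline factor, had an mESC-only site with 506 and 279 fragments. Pecam1, a cell adhesion gene of endothelium that mESCs also express, had 9 mESC-only regions and, in gastruloids, 1 peak in the first replicate alone. Snai1, an inducer of EMT, had a gastruloid-only site with 112 and 27 fragments and 77, 70, 110 and 28 at its start. Of 17 adult tissue genes kept as a control, 4 had an mESC-only region and none a gastruloid region.

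Over all genes, the most mESC-only regions lay near Rbpj, the DNA-binding partner of Notch, with 14. Epb41l4a had 13, and Etl4, Myo10 and Tbl1xr1 had 12 each. After Meis1, the genes with most gastruloid-only regions included Chic2, Crabp2 and Etv4, a target of FGF signalling, with 2 each. In the first gastruloid replicate alone, peaks that overlapped no mESC peak were most numerous near Foxp1, Gse1 and Meis1 with 13 each, and Maml3 and Pbx3 with 10 each.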

How the data were processed

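Chromatin immunoprecipitation with sequencing was analysed from 1 deposited peak list per library. The build was GRCm38.p6, and MACS2 2.2.7, BWA 2.2.1 and fastp 0.20.1 are named, per the submitters' processing notes. The role of each tool and any control input are not given in the sources used here. Each peak carries the authors' deposited score, the authors' fold enrichment (a ratio at the summit to the local background), the authors' −log10 p and −log10 q, and the deposited summit offset. All lists stop near a q of 0.05. Longer lists from deeper or better enriched libraries hold weaker sites, so heights were ranked only within a list.

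From the fold and −log10 p, fragment numbers under the summit and their expected background were solved for. Only whole fragment numbers were tried, and the −log10 p was met within 0.01 for 100% of peaks. A check on peaks simulated with the same formula tested the solving only. Total reads are not given. Genes and promoter windows came from RefSeq tables of the same build, 21887 protein-coding genes and 17492 of them with a window. Scripts used Python 3.11.15, pandas 2.3.3, NumPy 2.4.6 and SciPy 1.17.1.

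Shares per library were compared by an exact permutation test over libraries. The genes named were those nearest the 10 strongest regions of each class by mean rank of fold, the 5 with most regions of each class, the retinoic acid pathway genes with a region, and the 4 genes with most regions in each other list. From these, the ones described were chosen with their values known. Members and lists were chosen with earlier results of these data known. A few genes that this rule names are not reported here.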

Additional observations from a re-analysis of the deposited data

How the results depend on the processing

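Counts of regions depended on which replicates were required. Gastruloid-only regions (475) numbered 274 at a −log10 q of at least 5 and 908 with lists of equal length, and 513 to 15672 when 1 library was left out, the highest without gastruloid replicate 2. They were 740 without mESC replicate 1 and 1141 without gastruloid replicate 1. mESC-only regions (15973) numbered 2032 with lists of equal length and 16021 to 36563 when 1 library was left out, the highest without mESC replicate 2. Shared regions (1574) numbered 872 at the stricter q, 371 with lists of equal length and 1598 to 8782 when 1 library was left out, the highest without gastruloid replicate 2. List genes with a gastruloid-only region (34) numbered 19 with assignment within 20 kb and 35 to 201 when 1 library was left out. Those with an mESC-only region (170) numbered 45, and those with a shared region (59) numbered 26, with lists of equal length, and the shared ones 57 to 140 when 1 library was left out; both upper values were without gastruloid replicate 2. The stricter q, the equal length and the left-out library change which peaks or lists enter, and the 20 kb rule changes only the distance. With lists of equal length gastruloid-only regions outnumbered shared ones, the reverse of the full lists.

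With the replicate number as a block, pair 1, pair 2 and the mean of the pairs gave 16478, 1458 and 8968 gastruloid-only regions and 36647, 26476 and 31561.5 mESC-only regions. Shared regions numbered 13389 in pair 1 and 7521 in the mean. List genes with a gastruloid-only region numbered 206 in pair 1 and 128.5 in the mean, and with a shared region 180 and 119. Same-numbered mESC and gastruloid libraries share a code in the names of their deposited lists, the meaning of which is not stated. With 2 pairs, whether they share a batch was not tested.

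The difference in peaks at gene ends (gastruloid minus mESC, 16.8 percentage points) kept its direction under all 12 alternatives run, between 14.8 and 20.5. One of these, leaving out the listed starts, was chosen after seeing the data. Summits within 200 bp could not change this share and were not run for it. The difference for p300 of the same cell type (25.9 points) kept its direction under 10 of 11 alternatives and was -2.64 with lists of equal length, since the strongest mESC peaks had a higher p300 share. With AGGTCA half-sites alone, the excess of direct repeats over all windows was 0.843 points for shared and 1.59 for mESC-only windows, against 5.63 and 8.32. The median summit held 13 to 23 fragments, so a weak site can be missed in 1 list, and fragment counts set side by side were not scaled for depth or tested between cell types.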
